A study of Homo sapiens with 72 samples.

Results

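Small nucleolar RNA host genes were followed through a human cell-line study of G3BP1, an RNA-binding protein that nucleates stress granules. A gene was taken by its symbol in the authors' tables, either SNHG followed by a number or one of GAS5, ZFAS1, EPB41L4A-AS1, CYTOR, TAF1D and DANCR, and 28 of 61541 listed genes met this rule. Of these, 23 are numbered SNHG genes and the other 5 are GAS5, ZFAS1, CYTOR, TAF1D and DANCR, while no listed gene carried the symbol EPB41L4A-AS1. The genes were chosen by name, and no measured value is a threshold of the rule, but the group itself was selected on the log2 fold changes of all 11 tables, which had been seen, so its counts are given as a description beside the share of all genes called. A gene is called where the authors' adjusted p, taken over all genes of a table, is under 0.05, and log2 fold changes are the authors' shrunken values. The study used here has 24 libraries in 11 groups, and 48 further libraries of the study's RNA-editing experiments are not analysed here. RNA immunoprecipitation with sequencing (RIP-seq) set 3 immunoprecipitated (IP) against 3 input libraries of FlpIn 293 Trex cells, an embryonic kidney line with stable FLAG-G3BP1 induced by 1 ug/mL tetracycline for 24 h. The first RNA-seq experiment used U2OS cells, a bone osteosarcoma line, in 3 groups of 2 libraries: wild type, G3BP1/2 knockout, and knockout given a G3BP1 transgene by Lipofectamine 24 h earlier. The second had 6 groups of 2 libraries, all of them G3BP1/2 knockout U2OS cells: the knockout itself, the knockout transfected for 24 h with wild-type G3BP1 (WT rescue), and the knockout transfected for 24 h with an NTF2 deletion mutant of G3BP1 (NTF2 rescue), each without and with 200 uM sodium arsenite for 2 h. No knockout group was transfected, so the transgene and the transfection cannot be told apart in any rescue. The labels do not say that the libraries of a group came from separate cultures, and the p-values then measure only the spread between these libraries, which may be technical.

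Host genes carry small nucleolar RNAs (snoRNAs) in their introns. Splicing frees the intron, the snoRNA is trimmed out of it and goes to the nucleolus to guide chemical modification of ribosomal RNA, while the spliced host transcript, which often codes for no protein, leaves for the cytoplasm. Many hosts begin with a terminal oligopyrimidine (TOP) tract, a C at the first base followed by pyrimidines, which ties their translation to growth signals as it does for ribosomal protein mRNAs. Ribosomes that enter these transcripts meet early stop codons, and nonsense-mediated decay (NMD) then removes the RNA, so host transcripts are known to build up when translation is blocked. Arsenite is an oxidative stress that halts most initiation of translation. Poly-A selected libraries measure the spliced host and not the snoRNA.

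The RefSeq annotation (GRCh38.p14) places 69 snoRNA genes within the 28 host genes. GAS5 spans 11 of them, SNHG1 9 and TAF1D 8, and 26 of the 28 hosts span at least 1, the exceptions being CYTOR and SNHG27. TAF1D codes for a subunit of the RNA polymerase I factor SL1 and is a protein-coding host, whereas the other members are long noncoding RNAs. Another annotated gene overlaps 14 of the 28, which matters because the authors' counting is not stated to use strand. SNHG3 overlaps RCC1 on the same strand, SNHG12 meets TRNAU1AP on the opposite strand and TAF1D meets CEP295 on the opposite strand. GAS5 meets ZBTB37 and SNHG7 meets DIPK1B, both on the opposite strand. GAS5 also overlaps GAS5-AS1, SNHG29 overlaps LRRC75A and SNHG6 overlaps MCMDC2, with no strand listed for these neighbours. The part of these neighbours in the members' counts was not tested. CYTOR has a near-identical copy, MIR4435-2HG, so its reads are uncertain. Between 47 and 409 reads per U2OS library were counted on the 55 of these snoRNA genes that could be matched to a listed gene, all of them together.

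Annotated starts are shown for 12 members because the response to arsenite described below was set beside them. Each line gives 10 bases before and 20 bases from the RefSeq start (GRCh38.p14), 5′ to 3′ on the gene's own strand. Capitals mark a run of C and T that begins with a C at the annotated first base and is at least 5 bases long, searched on the gene's own strand only.
SNHG12: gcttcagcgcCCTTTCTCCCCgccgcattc (chr1:28581854-28581883, minus strand)
SNHG19: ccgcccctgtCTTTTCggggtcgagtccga (chr16:2155339-2155368, minus strand)
SNHG32: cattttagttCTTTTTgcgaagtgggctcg (chr6:31834906-31834935, plus strand)
SNHG5: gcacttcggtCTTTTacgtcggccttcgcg (chr6:85678714-85678743, minus strand)
ZFAS1: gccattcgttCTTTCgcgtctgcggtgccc (chr20:49278632-49278661, plus strand)
SNHG3: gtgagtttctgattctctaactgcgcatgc (chr1:28505933-28505962, plus strand)
GAS5: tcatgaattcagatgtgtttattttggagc (chr1:173869026-173869055, minus strand)
SNHG26: taaacttgatctccgcagtgccctcccttt (chr7:22854230-22854259, plus strand)
SNHG16: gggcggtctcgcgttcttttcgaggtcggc (chr17:76557754-76557783, plus strand)
SNHG17: gtgtggcctcagtccttcgccgtccctcgc (chr20:38435309-38435338, minus strand)
SNHG29: ccttttgtgaggattgggatattccgactc (chr17:16438977-16439006, plus strand)
CYTOR: atgagtcatctcgttccaatgagaatgaag (chr2:87455417-87455446, plus strand)
The first 5 of these hold such a run and the last 7 do not, SNHG26 having a run of 4 bases. A promoter entry was found for 24 of the 28 members, and 7 of the 24 start this way, the other two being TAF1D and SNHG18. Of all 35116 listed promoters 4.07% do. RefSeq gives 1 start per gene, and a start used in these cells may lie elsewhere, so the absence of a run says only that these letters are not at the listed start.

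Depth and identity of the libraries were checked on whole reads per library, worked out from the deposited base means of the U2OS tables. Gene reads ran from 38.6 to 52.5 M per library in the first experiment and from 10.8 to 27.8 M in the second. A normalised read below is a read count divided by the size factor of its library within the experiment. The labelled knockout still held 12744 and 12718 normalised G3BP1 reads in its 2 libraries of the first experiment, against 19198 and 18253 in wild type and 20272 and 20562 in rescue. G3BP2 had 6670.4 and 6457 in knockout, 8702 and 8165 in wild type and 7811 and 7737 in rescue. Transcripts of both target genes were thus lower but present, protein was not measured here, and knockout below is the name of the labelled group. In the second experiment G3BP1 stood at 3869.6 and 3939.7 in knockout, 630613 and 599602 in WT rescue and 851218 and 816242 in NTF2 rescue. All 4 markers fixed for U2OS cells (RUNX2, SPARC, VIM and CD44) had reads in each of the 18 libraries. They had reads in the RIP table too, with base means of 69.0, 32.0, 11619 and 123 in that order, so their presence alone does not identify the line. Of the 4 markers of other cell types, the endothelial PECAM1 had at most 3.13 normalised reads in the first experiment and 5.69 in the second, the leukocyte PTPRC at most 42.8 and 6.26, and the epithelial CDH1 at most 38.7 and 17.03. EPCAM, also epithelial, was present, with 339 to 558 normalised reads in the first experiment, 43.0 to 127 in the second and a base mean of 911 in RIP, and its part in the results was not tested. Of the 4 markers listed for 293 cells only INA separated the lines, with a base mean of 747 in the RIP table and at most 5.22 normalised reads in any U2OS library. LIN28B (1164 in RIP) ran from 412 to 1509 in U2OS, PAX2 (45.8 in RIP) reached 271 in U2OS, and NEFM was low in RIP (4.87). The RIP table averaged 12.2 M normalised gene reads per library.

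The RIP-seq table was used to ask which host transcripts were recovered with FLAG-G3BP1, against input only, since no control immunoprecipitation is among the libraries used. DANCR and SNHG7 were the most enriched host RNAs whose base mean reached 100, the level used for naming, and SNHG5 was the most depleted. Of 25 tested members 11 were higher and 7 lower in IP, while 24.7% of all 22856 tested genes were higher and 31.4% lower. The share of members called, like that of all genes, was large, and the median member stood at a log2 fold change of 0.30 beside 0.04 for all genes whose base mean reached 20. DANCR, a noncoding RNA known from progenitor cell differentiation that carries SNORA26, had a log2 fold change of 2.19 (adjusted p 1.40e-60, SE 0.13) in the authors' deposited table. SNHG7, the host of SNORA17A and SNORA17B, stood at 1.55 (adjusted p 1.33e-49, SE 0.10) in the same authors' deposited table. SNHG8 followed at 1.12 (adjusted p 1.96e-07, SE 0.21) in the authors' deposited table. SNHG5, the host of SNORD50A and SNORD50B, was at -1.72 (adjusted p 5.52e-16, SE 0.21) in the authors' deposited table. SNHG17 was at -0.79 (adjusted p 1.57e-07, SE 0.15) and TAF1D at -0.65 (adjusted p 6.95e-07, SE 0.12) in the authors' deposited table, both higher in input. CEP295, on the other strand from TAF1D, was at -2.69 and TRNAU1AP, on the other strand from SNHG12, at 1.87 in the authors' deposited table. The other called members were SNHG6 (1.02), SNHG11 (0.88), SNHG16 (0.64), SNHG21 (1.09) and SNHG29 (0.86) on the higher side in the authors' deposited table. CYTOR (-1.56), SNHG26 (-0.79) and SNHG31 (-1.66), all with a base mean under 100, were on the lower side in the authors' deposited table.

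Members with the pyrimidine run at their listed start stood on either side in this table. Of 6 tested, 2 were called higher and 3 lower in IP, with a median log2 fold change of -0.44. Among 15 tested without the run 8 were higher and 4 lower, and the 14 whose base mean reached 20 had a median of 0.47. Of all genes 24.7% were higher and 31.4% lower. The grouping was made after the values were seen and was not tested. SNHG5 and TAF1D, named above as lower, have the run. ZFAS1, a host of 3 box C/D snoRNAs next to ZNFX1, was lower in IP at -0.59 (adjusted p 0.00278, SE 0.18) in the authors' deposited table. SNHG19, at 0.82, and SNHG32, at 0.58, were called higher in the authors' deposited table. SNHG12 (-0.30, adjusted p 0.112) was not called in the authors' deposited table. GAS5, with 10 box C/D snoRNAs the most of any member, was slightly higher at 0.30 (adjusted p 0.0143, SE 0.11) in the authors' deposited table. SNHG1 (-0.13), SNHG3 (0.27) and SNHG15 (0.10) did not pass the test in the authors' deposited table, with adjusted p of 0.333, 0.214 and 0.521. GAS5, SNHG1 and SNHG3 lack the run at their listed starts, and no promoter entry was found for SNHG15. The Wald statistics of this table are far wider than a unit normal, with a robust spread of 3.84. Divided by that spread, DANCR (adjusted p 0.000525) and SNHG7 (adjusted p 0.00219) were the 2 members still called, against 18 as deposited. The division treats most genes as unchanged, which need not hold for IP against input, so a loss of calls was built in. It does not show that the other members are unchanged, and the share of all genes still called is not given here. Reads per library could not be worked out for this table, so no spread between its libraries is shown.

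**Figure D1:**
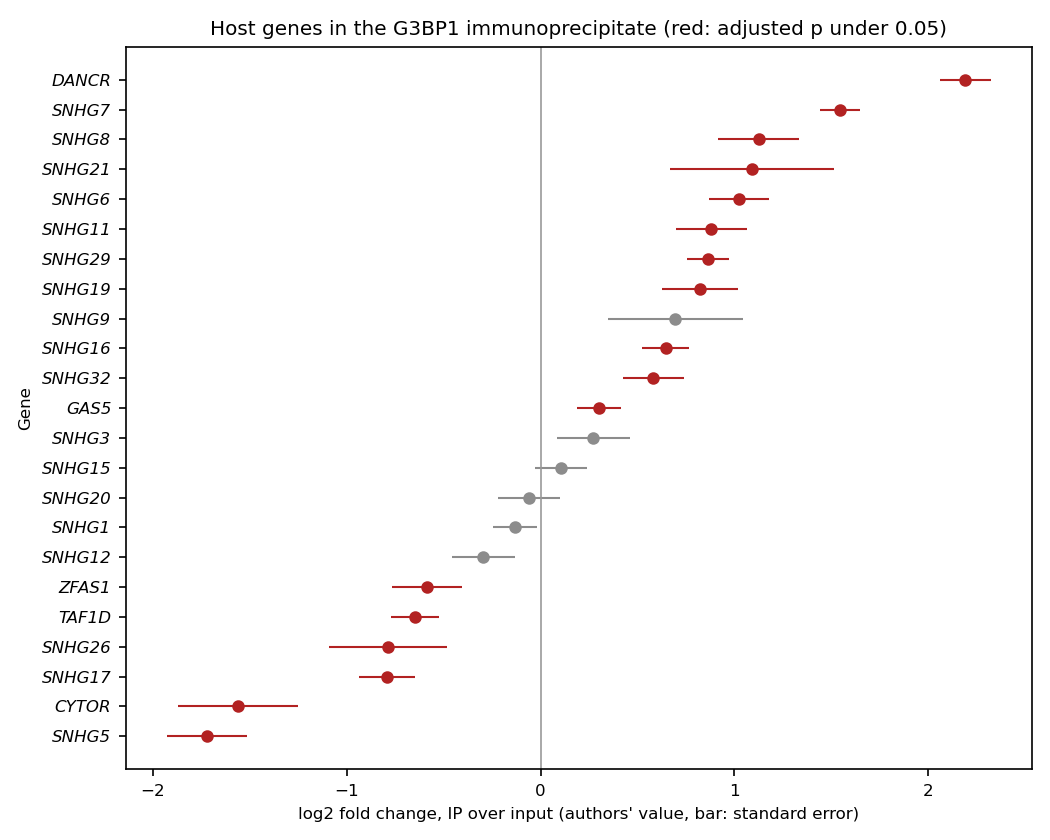
Log2 fold change of 23 host genes whose base mean reached 20 in IP over input (x axis, authors' shrunken value, bars are the authors' standard errors; 3 libraries per group; y axis, genes in order of the value). DANCR at 2.19 and SNHG7 at 1.55 lie at the right end and SNHG5 at -1.72 at the left, with called genes in red.

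The first U2OS experiment compared host RNA levels in the cells labelled G3BP1/2 knockout, whose G3BP1 and G3BP2 transcripts remained, with those in wild-type cells. SNHG5, SNHG29, SNHG6 and DANCR were higher in knockout than in wild-type cells, together with the low-count SNHG27, and CYTOR, SNHG17, SNHG7, SNHG16, SNHG8 and TAF1D were lower. That is 5 higher and 6 lower of 27 tested members, where 18.4% of all 25724 tested genes were higher and 19.4% lower. Among 27 members with a mean of at least 20 normalised reads, 8 had both knockout libraries above both wild-type libraries and 10 had both below, as had 40.5% and 39.7% of all genes, so a gap between 2 and 2 libraries was common. In bulk RNA, fewer cells with a transcript and less of it per cell cannot be told apart. The median over members was 0.03, and 0.01 over all genes whose base mean reached 20. SNHG29, the host of SNORD49A, SNORD49B and SNORD65, had 11633 and 11183 normalised reads in the knockout libraries and 6977 and 7088 in wild type. Both knockout libraries lay above both wild-type libraries, and the log2 fold change was 0.69 (adjusted p 1.54e-38, SE 0.05) in the authors' deposited table. SNHG5 had 735 and 755 normalised reads in knockout and 398 and 497 in wild type, also without overlap, with 0.71 (adjusted p 4.98e-06, SE 0.15) in the authors' deposited table. CYTOR, the cytoskeleton regulator RNA, which has no snoRNA in its span, had 1161 and 1104 in knockout and 1794 and 1816 in wild type. Its libraries did not overlap either, in the lower direction, with -0.67 (adjusted p 3.17e-12, SE 0.09) in the authors' deposited table. MIR4435-2HG, its copy, stood at -0.70 in the same authors' deposited table. SNHG17 was lower at -0.53 (adjusted p 2.60e-07, SE 0.10) in the authors' deposited table.

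The best known host RNAs differed little between knockout and wild type. GAS5, a growth-arrest RNA, had 4525 and 4954 normalised reads in knockout and 4416 and 4967 in wild type, so the groups overlapped. In the authors' deposited table GAS5 stood at 0.01 (adjusted p 0.945), SNHG1 at 0.05 (0.865), SNHG3 at 0.05 (0.666), SNHG12 at 0.03 (0.901), SNHG15 at 0.08 (0.687) and ZFAS1 at -0.12 (0.349). None of these 6 was called. SNHG31 (0.69, adjusted p 0.0536) and SNHG11 (-0.44, adjusted p 0.0526), which are among the 3 highest and 3 lowest values of members whose base mean reached 100, also missed the threshold in the authors' deposited table. DANCR, with 3905 and 3805 against 3099 and 3434, was higher by 0.23 (SE 0.07, adjusted p 0.00409) and TAF1D lower at -0.20 (adjusted p 0.00505, SE 0.06) in the authors' deposited table.

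Cells given G3BP1 back had more of many host RNAs than either other group of the first experiment. Against rescue, knockout had 13 members lower and 1 higher of 27 tested, where 21.5% of 22945 genes were lower and 16.1% higher, and wild type had 12 lower and none higher of 27 tested, where 20.4% of 22861 genes were lower and 15.2% higher. Both libraries lay below both rescue libraries for 18 of 27 members in knockout and 17 of 27 in wild type, and for 40.2% and 39.0% of all genes. The 2 comparisons share the rescue libraries. Member medians were -0.20 and -0.22, where all genes stood at -0.01 and -0.02. SNHG16, the host of SNORD1A to SNORD1C, had 9665 and 8914 normalised reads in rescue, 5652 and 5909.9 in knockout and 6741 and 6827 in wild type. The rescue libraries were the highest of the 6, and knockout against rescue gave -0.69 (adjusted p 2.84e-34, SE 0.06) in the authors' deposited table. CYTOR had 1832 and 1748 in rescue, level with wild type, and knockout was lower than rescue at -0.66 (adjusted p 6.35e-13, SE 0.09) in the authors' deposited table. SNHG8, the host of SNORA24, was at -0.57 (adjusted p 3.42e-10, SE 0.09) in that authors' deposited table.

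SNHG5 went the other way, with 509.9 and 460.02 normalised reads in rescue. It was the member called higher in knockout than in rescue, at 0.58 (adjusted p 2.11e-05, SE 0.13) in the authors' deposited table. SNHG31 (0.27, adjusted p 0.461) and SNHG18 (-0.01, adjusted p 0.979) came next among members whose base mean reached 100 in the authors' deposited table and were not called. GAS5 had 6252 and 6455 in rescue, above the other 4 libraries, and knockout and wild type stood at -0.43 and -0.45 against it (adjusted p 3.10e-12 and 1.01e-11) in the authors' deposited tables. SNHG15 stood at -0.42 and -0.51, SNHG1 at -0.31 and -0.36, SNHG12 at -0.33 and -0.37 and TAF1D at -0.43 and -0.25, all called in both of the authors' deposited tables. ZFAS1 was called in knockout against rescue (-0.25) and not in wild type against rescue (-0.13, adjusted p 0.25), and SNHG3 had -0.11 (adjusted p 0.156) and -0.17 (adjusted p 0.0259) in the authors' deposited tables. Wild type differed most from rescue at SNHG29 (-0.78, adjusted p 4.97e-62, SE 0.05), DANCR (-0.68, adjusted p 7.45e-21, SE 0.07) and SNHG6 (-0.64, adjusted p 1.10e-18, SE 0.07) in the authors' deposited table. Its highest values there among members whose base mean reached 100, SNHG18 (0.34, adjusted p 0.169), SNHG11 (0.21, 0.367) and SNHG17 (0.13, 0.286), were not called in the authors' deposited table. CD44, one of the U2OS markers, had 13247 and 12851 normalised reads in rescue, 4692 and 4538 in knockout and 16216 and 16323 in wild type, and its part in these results was not tested.

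In the second experiment both rescues had more of most host RNAs than the untransfected knockout. With WT rescue 15 members were higher and 1 lower of 27 tested, where 23.0% of 20738 genes were higher and 19.1% lower, and with NTF2 rescue 17 were higher and 1 lower of 27, where 22.8% of 20911 genes were higher and 18.7% lower. Both rescue libraries lay above both knockout libraries for 21 of 25 members in either rescue, and for 45.0% and 44.1% of all genes. Both comparisons share the knockout libraries. The median member stood at 0.76 and 0.82, where all genes whose base mean reached 20 stood at 0.08 and 0.07. Genes whose base mean reached 100 were shifted upward by a median of 0.18 and 0.17 in these tables. After that shift was subtracted 13 members were higher and 1 lower for WT rescue and 15 and 1 for NTF2 rescue. The shares of all genes above are without that subtraction and shares after it are not given here, so these counts have no background to be read against.

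SNHG15, the host of SNORA9, had the largest rise with WT rescue. It had 278 and 268 normalised reads in knockout, 774 and 729.9 in WT rescue and 610.1 and 685 in NTF2 rescue. The rescue libraries lay far above the knockout, with 1.46 (adjusted p 1.35e-21, SE 0.15) and 1.24 (adjusted p 1.56e-14, SE 0.16) in the authors' deposited tables. SNHG17, the host of SNORA71A to SNORA71D, had 392 and 448 in knockout, 1122 and 1016 in WT rescue and 1067 and 979 in NTF2 rescue, and rose by 1.35 and 1.29 (adjusted p 4.15e-24 and 1.48e-21) in the authors' deposited tables. SNHG12, which carries SNORD99 and 3 SNORA genes, had 241 and 190.2 in knockout, 513 and 503 in WT rescue and 449 and 482 in NTF2 rescue. It rose by 1.23 and 1.10 (adjusted p 7.21e-11 and 1.23e-08) in the authors' deposited tables, while TRNAU1AP, which it meets on the other strand, stood at -0.29 and 0.05 and was not called. GAS5 went from 1624 and 1452 in knockout to 3507 and 3268 in WT rescue and 3180.1 and 3210.4 in NTF2 rescue, with 1.15 and 1.07 (adjusted p 1.06e-44 and 6.34e-38) in the authors' deposited tables.

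The other hosts named for every comparison rose as well. ZFAS1 had 423 and 393 normalised reads in knockout, 851 and 740.1 in WT rescue and 802 and 801 in NTF2 rescue, with 0.97 and 0.98 (adjusted p 4.74e-11 and 3.05e-12) in the authors' deposited tables. Values for SNHG1 were 1.16 and 0.99, for DANCR 0.89 and 1.01 and for TAF1D 0.92 and 0.79, all called in the authors' deposited tables. CYTOR had 346 and 348 in knockout, 809 and 748 in WT rescue and 840.2 and 832 in NTF2 rescue, with 1.17 and 1.28 (adjusted p 1.14e-15 and 1.47e-19), and its copy MIR4435-2HG 0.70 and 0.75, in the authors' deposited tables. SNHG3 rose less, by 0.39 and 0.45 (adjusted p 0.00031 and 2.45e-05), and RCC1, which it overlaps, by 0.69 and 0.83 in the authors' deposited tables.

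A few hosts did not share this rise. SNHG5, with 155 and 215 normalised reads in knockout, 139 and 167 in WT rescue and 166 and 152 in NTF2 rescue, stood at -0.24 and -0.18 (adjusted p 0.502 and 0.621) in the authors' deposited tables, and its groups overlapped. SNHG19, the host of SNORD60, stood at -0.18 and -0.13 (adjusted p 0.414 and 0.601) in the authors' deposited tables and was not called. SNHG18, the host of SNORD123, fell from 66.3 and 62.6 in knockout to 11.02 and 10.2 in WT rescue and 5.14 and 13.02 in NTF2 rescue. These are low counts, and the log2 fold changes were -2.10 (adjusted p 3.11e-05, SE 0.47) and -2.24 (adjusted p 1.28e-05, SE 0.48) in the authors' deposited tables. In the first experiment SNHG18 had 187 and 179.7 in knockout and 171 and 195 in rescue, so no such gap was seen there. Markers of the U2OS line moved with the rescues too. CD44 had 1024 and 976 normalised reads in knockout, 10206 and 10158 in WT rescue and 9842 and 9259 in NTF2 rescue. SPARC had 23278 and 22603 in knockout, 9769.95 and 9791 in WT rescue and 10137 and 9810.2 in NTF2 rescue, and RUNX2 had 205 and 179, then 80.5 and 72.7, then 71.9 and 83.5 in the same order. The part of this difference between the knockout and rescued cells in the host gene values was not tested.

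**Figure D2:**
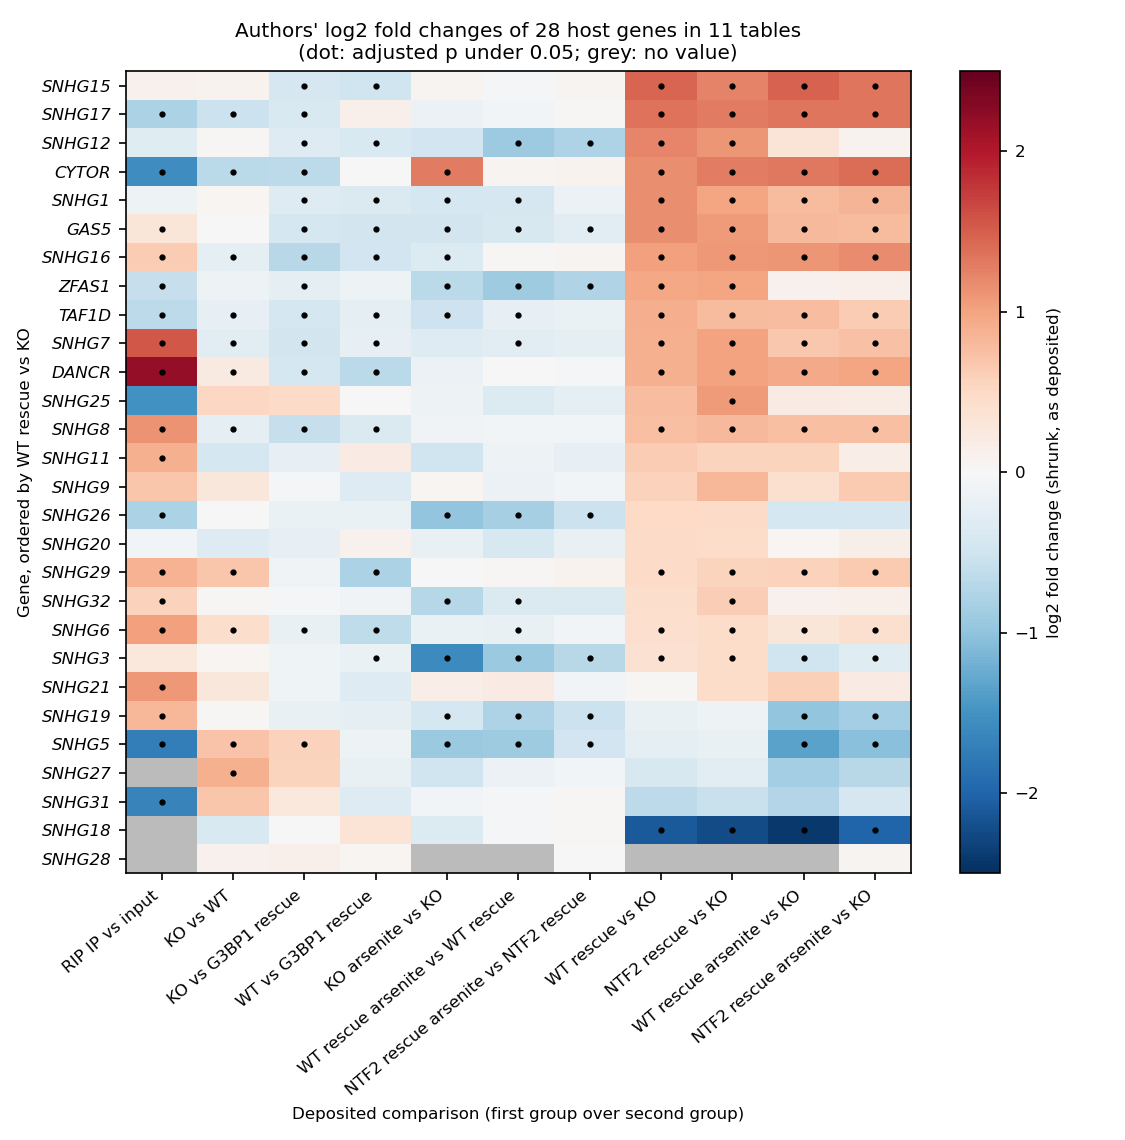
Authors' shrunken log2 fold change (colour, red higher in the group named first) of the 28 host genes (y axis, ordered by WT rescue against knockout) in the 11 deposited comparisons (x axis); dots mark an adjusted p under 0.05 and grey cells have no value. The rescue columns on the right are red for most rows, from 1.46 for SNHG15 to 0.39 for SNHG3 in WT rescue among called genes, with SNHG18 at -2.10, while the 3 arsenite columns hold mostly blue cells.

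No member was called different between the 2 forms of G3BP1, which does not show that the forms act alike. The difference between WT rescue and NTF2 rescue was computed for 27 members whose base mean reached 10, as the difference of the 2 deposited log2 fold changes over the root of the summed squared standard errors, and no member was called without arsenite or with it, nor had any an unadjusted p under 0.05. By this test 0.0185% and 0.0785% of all genes were called. Limma on the recovered reads, which compares the rescue libraries directly, also called none of the 27 in either state, while it called 0.942% and 2.86% of all genes. Because the knockout libraries enter both tables, the difference test overstates the error of these differences. For SNHG15 WT rescue minus NTF2 rescue was 0.21 (adjusted p 1, SE 0.22) without arsenite, for GAS5 0.08 (adjusted p 1, SE 0.11), for SNHG1 0.17 (adjusted p 1, SE 0.14) and for TAF1D 0.13 (adjusted p 1, SE 0.12) in the difference test. Among members whose base mean reached 100, SNHG32 had the lowest value, -0.16 with an SE of 0.30, DANCR was at -0.12 with an SE of 0.15, and SNHG12 stood at 0.12. With arsenite in both, SNHG5 (-0.28, adjusted p 1, SE 0.38) and SNHG3 (-0.21, adjusted p 1, SE 0.16) were at the low end and SNHG12 (0.23, adjusted p 1, SE 0.29) at the high end of the difference test.

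Arsenite lowered a set of host RNAs in all 3 kinds of cell. These were GAS5, SNHG3, SNHG5, SNHG19, SNHG26 and ZFAS1, called lower in knockout, WT rescue and NTF2 rescue alike, from comparisons that share no library. They are 6 of the 21 members tested in all 3 tables, where 4.54% of 11542 genes were called lower in all 3. Taken one by one, 10 of 25 tested members were lower and 1 was higher in knockout (10.9% and 8.56% of 15497 genes), 12 of 24 were lower and none higher in WT rescue (12.2% and 8.18% of 13635) and 7 of 21 were lower and none higher in NTF2 rescue (6.14% and 2.43% of 11578). Both treated libraries lay below both untreated ones for 20 of 24 members in knockout, 15 of 24 in WT rescue and 14 of 24 in NTF2 rescue, and for 33.9%, 27.1% and 26.6% of all genes. The median member stood at -0.34, -0.20 and -0.17, beside -0.00, 0.01 and 0.01 for all genes. Limma on the recovered reads, a test added later, called 11 of 27 members lower in NTF2 rescue and 6.89% of all genes.

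SNHG3, the host of SNORA73A and SNORA73B, had the lowest value in knockout. It went from 1139 and 1035 normalised reads to 336 and 341 with arsenite in knockout, from 1411 and 1402 to 778 and 682 in WT rescue and from 1433 and 1507 to 905 and 819.95 in NTF2 rescue. In each kind of cell both treated libraries lay below both untreated ones, with -1.60 (adjusted p 6.59e-34, SE 0.13), -0.92 (adjusted p 1.86e-37, SE 0.07) and -0.69 (adjusted p 4.72e-14, SE 0.08) in the authors' deposited tables. RCC1, the protein-coding gene it overlaps, had -0.06, 0.01 and -0.06 and was not called in any of these authors' deposited tables. ZFAS1 went from 423 and 393 to 259 and 226 in knockout, from 851 and 740.1 to 420.2 and 417 in WT rescue and from 802 and 801 to 429.9 and 439 in NTF2 rescue. Again no treated library reached an untreated one, and the values were -0.68 (adjusted p 0.000597, SE 0.17), -0.89 (adjusted p 9.23e-22, SE 0.09) and -0.74 (adjusted p 2.99e-11, SE 0.10) in the authors' deposited tables.

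SNHG12 and SNHG5 also had low values. In the authors' deposited tables these were of similar size in WT rescue only, but unshrunk they were no further apart in NTF2 rescue than in WT rescue. SNHG12 went from 241 and 190.2 normalised reads to 143 and 148 in knockout, from 513 and 503 to 251 and 269.5 in WT rescue and from 449 and 482 to 245 and 203 in NTF2 rescue. The groups did not overlap in any of the 3, yet in the authors' deposited tables it was not called in knockout (-0.48, adjusted p 0.0997) and was called in the rescues at -0.90 (adjusted p 2.13e-16, SE 0.10) and -0.77 (adjusted p 2.77e-08, SE 0.12). SNHG5 went from 155 and 215 to 77.3 and 90.5 in knockout, 139 and 167 to 66.04 and 68.6 in WT rescue and 166 and 152 to 81.8 and 85.4 in NTF2 rescue. The authors' deposited tables gave it -0.93 (adjusted p 0.00118, SE 0.24), -0.89 (adjusted p 5.67e-07, SE 0.16) and -0.48 (adjusted p 0.00951, SE 0.14). Its unshrunk log2 ratios of group means were -1.14, -1.18 and -0.93, and those of SNHG12 were -0.57, -0.97 and -1.05 in the same order. The amount of shrinkage thus differed between tables, and for SNHG5 the deposited values alone overstate the gap between NTF2 rescue and the other cells. SNHG19 was called in all 3 of the authors' deposited tables, at -0.45, -0.78 and -0.53, as was SNHG26, the host of SNORD93, at -0.99, -0.82 and -0.53. Unshrunk, SNHG26 stood at -1.26, -1.02 and -0.96. SNHG32, the host of SNORD48 and SNORD52, was called at -0.72 in knockout and -0.37 in WT rescue in the authors' deposited tables, with -0.36 (adjusted p 0.0558) in NTF2 rescue.

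GAS5 fell to a smaller degree. It went from 1624 and 1452 normalised reads to 1088 and 1126 in knockout, from 3507 and 3268 to 2571 and 2626 in WT rescue and from 3180.1 and 3210.4 to 2553 and 2616 in NTF2 rescue, without overlap in any. Its values were -0.45 (adjusted p 0.000112, SE 0.10), -0.40 (adjusted p 3.02e-16, SE 0.05) and -0.29 (adjusted p 1.77e-05, SE 0.06) in the authors' deposited tables. SNHG1, the host of 8 box C/D snoRNAs, was called at -0.45 in knockout and -0.42 in WT rescue and stood at -0.15 (adjusted p 0.158) in NTF2 rescue in the authors' deposited tables. TAF1D stood at -0.53, -0.20 and -0.16, called in the first 2 of the authors' deposited tables with adjusted p of 3.64e-06, 0.000306 and 0.132, while CEP295 on the other strand stood at 0.43, 0.34 and 0.25.

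Other hosts were not called with arsenite. SNHG15 had 278 and 268 normalised reads without and 292 and 279 with arsenite in knockout, WT rescue 774 and 729.9 without and 743 and 735 with it, and NTF2 rescue 610.1 and 685 without and 649 and 714 with it. The treated knockout libraries lay above the untreated ones and the rescue groups overlapped. Its values of 0.07, -0.04 and 0.06 were not called in the authors' deposited tables, where the adjusted p was 0.875, 0.81 and 0.868. DANCR (-0.16, -0.01 and -0.04) and SNHG29 (0.01, 0.03 and 0.09) were not called in any of the 3 authors' deposited tables. The standard errors of SNHG29 were 0.08, 0.04 and 0.05.

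Members with and without the pyrimidine run at their RefSeq start were set side by side. The 7 with a run are SNHG5, SNHG12, SNHG18, SNHG19, SNHG32, TAF1D and ZFAS1, a grouping made after the values were seen and therefore not tested. In WT rescue the 6 of them whose base mean reached 20 had a median log2 fold change with arsenite of -0.83, with all 6 tested called lower. Without the run, 15 members had a median of -0.07, and 5 of 14 tested were lower. In knockout the medians were -0.53 (5 of 7 lower) and -0.26 (5 of 14 lower), and in NTF2 rescue -0.51 (4 of 6 lower) and -0.11 (3 of 13 lower). Of all tested genes 12.2% were lower in WT rescue, 10.9% in knockout and 6.14% in NTF2 rescue. TAF1D and SNHG18, whose starts are not printed above, had the weakest values of the 7 in WT rescue, -0.20 and -0.06. SNHG18 was outside that median for its low base mean. Of the 6 members called lower in all 3 kinds of cell, SNHG5, SNHG19 and ZFAS1 have the run and SNHG3, GAS5 and SNHG26 do not at their listed starts. In WT rescue against knockout without arsenite the medians were 0.45 with and 0.82 without the run.

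**Figure D3:**
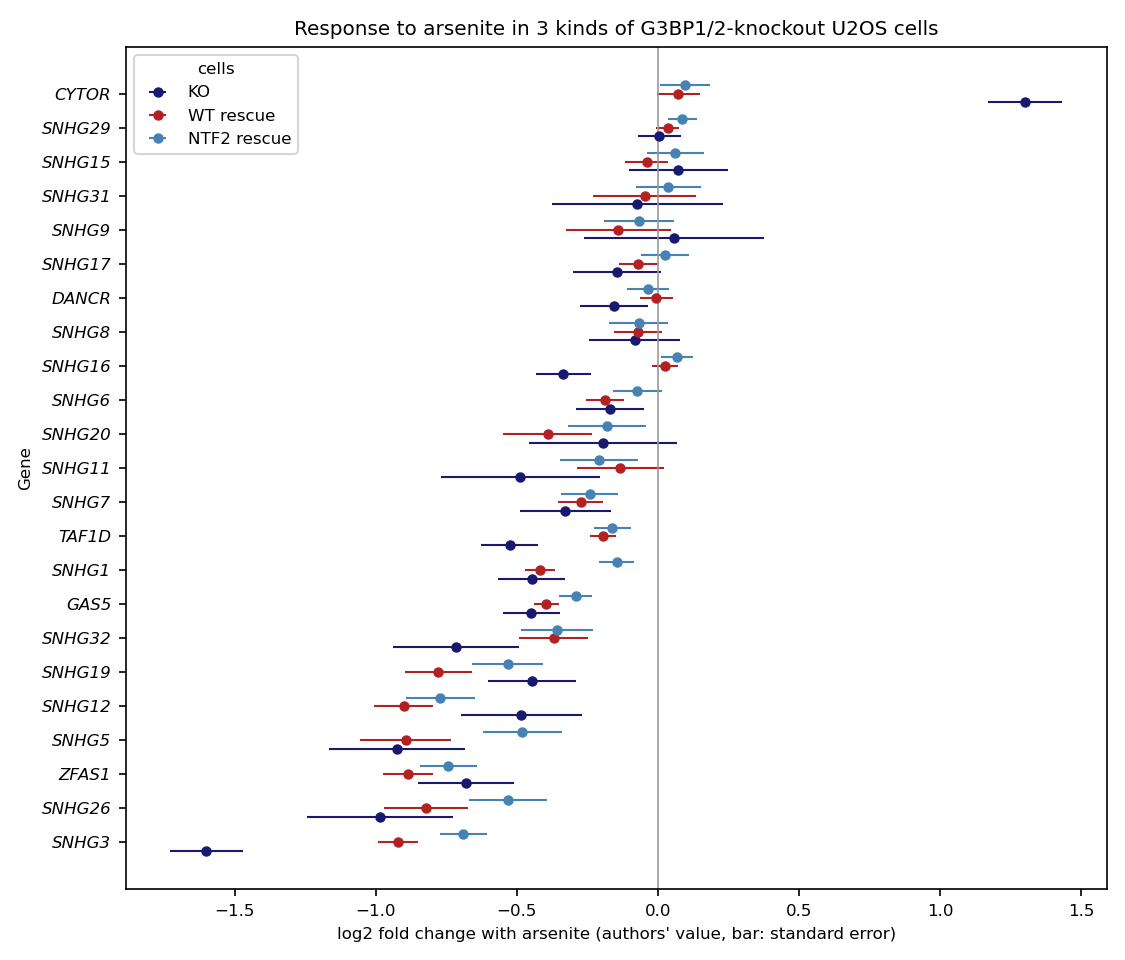
Authors' log2 fold change with arsenite (x axis, bars are the authors' standard errors) of 23 host genes whose base mean reached 20 in all 3 tables (y axis, ordered by the mean), for knockout (dark), WT rescue (red) and NTF2 rescue (blue), 2 libraries per group. SNHG3, SNHG26, ZFAS1, SNHG5, SNHG12 and SNHG19 lie left of 0 in every kind of cell, and CYTOR lies at 1.30 in knockout and near 0 in both rescues.

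The arsenite responses of knockout and rescued cells were then compared gene by gene. CYTOR and SNHG3 gave the widest gaps among called members. CYTOR had 346 and 348 normalised reads in untreated knockout and 859.7 and 908 with arsenite, whereas WT rescue had 809 and 748 without and 851 and 807 with it, and NTF2 rescue 840.2 and 832 without and 882 and 921 with it. The untreated knockout alone was low, and the treated knockout libraries fell within the range of the rescued ones. CYTOR rose in knockout (1.30, adjusted p 3.40e-21, SE 0.13) and was not called in the rescues (0.07 and 0.10) in the authors' deposited tables. WT rescue minus knockout was -1.23 (adjusted p 1.10e-13, SE 0.15) and NTF2 rescue minus knockout -1.21 (adjusted p 5.93e-12, SE 0.16) in the difference test. MIR4435-2HG, its copy, was at 0.33 in knockout (adjusted p 0.00218), -0.06 in WT rescue and -0.07 in NTF2 rescue in the authors' deposited tables.

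SNHG3 fell further in knockout than in the rescues. The difference test gave 0.68 (adjusted p 0.000219, SE 0.15) for WT rescue minus knockout and 0.91 (adjusted p 2.13e-07, SE 0.15) for NTF2 rescue minus knockout. SNHG16 went from 1471 and 1384 normalised reads to 1101 and 1128 in knockout, and stood at 2802 and 2922 and then 3015 and 2870.4 in WT rescue. It was called lower in knockout (-0.34, adjusted p 0.00534, SE 0.10) and not in the rescues (0.02 and 0.07) in the authors' deposited tables, with differences of 0.36 (adjusted p 0.0262, SE 0.11) and 0.40 (adjusted p 0.00833, SE 0.11) in the difference test. TAF1D differed in NTF2 rescue minus knockout (0.36, adjusted p 0.0409, SE 0.12) and missed the threshold in WT rescue minus knockout (0.33, adjusted p 0.0638, SE 0.11) in the difference test. SNHG12 (-0.42, adjusted p 0.492, SE 0.24) had the lowest difference after CYTOR for WT rescue and ZFAS1 stood at -0.20, GAS5 at 0.05, SNHG1 at 0.03, SNHG15 at -0.11 and DANCR at 0.15, none of them called. In all, 3 of 27 members differed for WT rescue (4.51% of 15648 genes) and 4 of 27 for NTF2 rescue (7.12% of 15442 genes), comparisons that share the knockout response. Between WT and NTF2 rescue no member was called, with 2 at an unadjusted p under 0.05 and 0.328% of 15865 genes called, and limma on the recovered reads also called none, with 0.126% of all genes. Those 2 were SNHG1 (-0.27, adjusted p 0.174, SE 0.08) and SNHG3 (-0.23, adjusted p 1, SE 0.11) in the difference test.

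**Figure D4:**
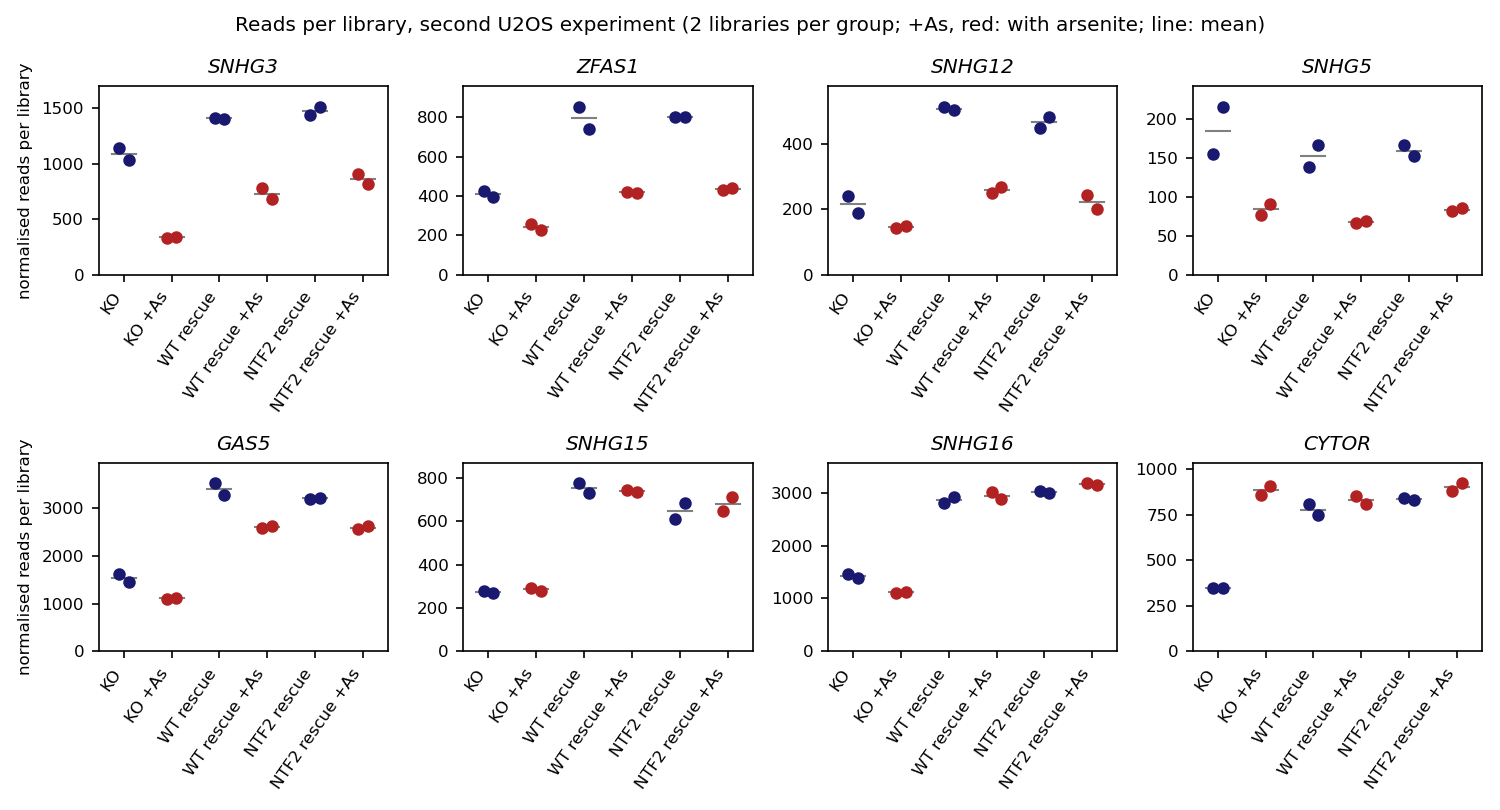
Normalised reads per library (y axis, linear from 0) of 8 host genes in the 6 groups of the second experiment (x axis, +As and red points with arsenite), each point 1 library and the line the mean of 2. SNHG3, ZFAS1, SNHG12, SNHG5 and GAS5 are lower with arsenite in each kind of cell, SNHG15 overlaps between treated and untreated rescue groups, and CYTOR is low in untreated knockout alone.

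Rescued cells with arsenite were also set against untreated knockout cells, a comparison in which rescue and arsenite act together. With WT rescue 12 members were higher and 4 lower of 27 tested (25.1% and 19.8% of 22192 genes), and with NTF2 rescue 12 and 4 (23.3% and 19.6% of 21660 genes). Genes whose base mean reached 100 were shifted upward by a median of 0.22 and 0.19 in these tables. SNHG15 (1.48 and 1.34), SNHG17 (1.35 and 1.34), CYTOR (1.31 and 1.40) and DANCR (0.94 and 0.98) were called higher in the authors' deposited tables. GAS5 (0.81 and 0.78), SNHG1 (0.80 and 0.85) and TAF1D (0.78 and 0.64) were also called higher in the authors' deposited tables, and so was SNHG4, which is no member by the rule (0.44 and 0.54). ZFAS1 (0.10 and 0.13, adjusted p 0.633 and 0.564) and SNHG12 (0.32 and 0.09, adjusted p 0.181 and 0.795) were not called in the authors' deposited tables. SNHG5 (-1.34 and -1.05, adjusted p 2.48e-06 and 0.000422), SNHG19 (-0.99 and -0.85), SNHG3 (-0.51 and -0.29) and SNHG18 (-2.41 and -2.00) were lower in the authors' deposited tables. SNHG26, at -0.42 (adjusted p 0.233), was among the lowest with NTF2 rescue and was not called in the authors' deposited table.

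Genes of related machinery were counted from 3 lists, with counts and medians to be read against those of all genes. The shares of all genes called higher and lower were 24.7% and 31.4% in IP, 23.0% and 19.1% in WT rescue and 22.8% and 18.7% in NTF2 rescue against knockout. They were 18.4% and 19.4% in knockout against wild type, and 16.1% and 21.5% in knockout and 15.2% and 20.4% in wild type against G3BP1 rescue. The 17 genes of the snoRNA protein core and its assembly, such as the methyltransferase FBL and the scaffold NOP58, were mostly higher in IP (14 higher, 1 lower, median 1.24) and in WT rescue against knockout (16 higher, none lower, median 1.08) and NTF2 rescue (16 higher, none lower, median 1.19). FBL stood at 2.16 in IP and 1.05 in WT rescue, SNU13, which binds the snoRNA's kink-turn, at 1.26 and 1.40, in the authors' deposited tables. With arsenite, where 8.56% of all genes were higher and 10.9% lower in knockout, 8.18% and 12.2% in WT rescue and 2.43% and 6.14% in NTF2 rescue, 1 of the 17 was lower and none higher in knockout, 2 higher and none lower in WT rescue and none called in NTF2 rescue. Knockout had 14 of the 17 lower than rescue in the first experiment and wild type had 15, with none higher in either, and knockout had 4 higher and 5 lower than wild type.

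The 14 NMD factors included UPF1, the helicase at the centre of the pathway. In IP 4 were higher and 8 lower (median -0.30), beside 24.7% and 31.4% of all genes. In WT rescue and in NTF2 rescue 11 were higher and none lower (medians 0.60 and 0.55), beside 23.0% and 22.8% of all genes higher. With arsenite 2 were higher and none lower in knockout, beside 8.56% and 10.9% of all genes. In WT rescue 4 were higher and 1 lower with arsenite, beside 8.18% and 12.2% of all genes. In NTF2 rescue 1 was higher and none lower with arsenite, beside 2.43% and 6.14% of all genes. UPF2, a scaffold of the NMD complex, was called higher in each of these 3 authors' deposited tables, at 0.38, 0.32 and 0.23. Knockout had 4 higher and 7 lower than wild type and 1 higher and 9 lower than rescue, and wild type had 3 higher and 7 lower than rescue.

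Of 20 protein-coding genes that also host snoRNAs, 19 were higher and none lower in WT rescue (median 0.81) and 18 and none in NTF2 rescue (median 0.82). With arsenite 3 were higher and 3 lower in knockout (8.56% and 10.9% of all genes), 3 and 3 in WT rescue (8.18% and 12.2%) and 1 and 2 in NTF2 rescue (2.43% and 6.14%), with medians of 0.02, -0.02 and -0.01. HSPA8, a chaperone, was higher at 0.67, 0.31 and 0.25, and EEF2, a translation elongation factor, lower at -0.19, -0.14 and -0.17 in the authors' deposited tables. In IP 10 were higher and 8 lower, with SLC25A3 at 2.31 and EP400 at -3.90 in the authors' deposited table. Knockout had 2 higher and 10 lower than wild type and 1 higher and 15 lower than rescue, and wild type 2 higher and 13 lower than rescue.

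Another 6 genes carry such names in the gene name table but not in the authors' tables (EPB41L4A-AS1, SNHG4, SNHG10, SNHG14, SNHG22 and SNHG30) and stand outside the rule. SNHG4, the host of SNORA74A, had 559 and 487 normalised reads in knockout and 183 and 140.5 with arsenite, WT rescue 1212 and 1359.95 without and 704 and 654 with it, and NTF2 rescue 1271 and 1270.5 without and 719 and 768 with it. Its arsenite values of -1.54 (adjusted p 2.25e-16, SE 0.18), -0.90 (adjusted p 1.36e-32, SE 0.07) and -0.69 (adjusted p 2.83e-13, SE 0.09) in the authors' deposited tables were of the size seen for SNHG3. Overlapping genes were looked up for the members only, and the part of any neighbour in the counts of SNHG4 was not tested. SNHG4 also rose with WT rescue (1.30) and NTF2 rescue (1.29), was lower in knockout, both against wild type (-0.91) and against rescue (-0.88), and was lower in IP (-0.78) in the authors' deposited tables. Wild type against rescue gave it 0.01 (adjusted p 0.943) in the authors' deposited table. SNHG14 went the other way, at -1.70 and -1.62 with WT and NTF2 rescue (adjusted p 5.48e-58 and 3.75e-51), and its arsenite values of 0.13, 0.23 and 0.20 were not called in the authors' deposited tables although both treated libraries lay above both untreated ones in each kind of cell. SNHG30 was called higher with WT rescue (0.80) and missed the threshold with NTF2 rescue (0.68, adjusted p 0.0524), SNHG10 (0.20 and 0.21) was not called with either, and neither gene was called with arsenite in the authors' deposited tables. SNHG22 had a base mean under 10 in each of the 11 tables. EPB41L4A-AS1 rose with both rescues (0.96 and 0.70) in the authors' deposited tables. It was called lower with arsenite in WT rescue (-0.43) and missed the threshold in knockout (-0.51, adjusted p 0.0558) and NTF2 rescue (-0.21, adjusted p 0.374) in the authors' deposited tables.

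The least covered members had few reads. SNHG28 had at most 4.70 normalised reads in any U2OS library and no adjusted p in any of the 11 tables. SNHG21, SNHG25 and SNHG27 had at most 26.7, 59.7 and 29.8 normalised reads in the libraries of the second experiment. In that experiment SNHG25 rose with NTF2 rescue (1.07, adjusted p 0.0456, SE 0.46) and stood at 0.77 (adjusted p 0.215) with WT rescue in the authors' deposited tables.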

How the data were processed

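Poly-A selected RNA was sequenced from U2OS and FlpIn 293 Trex cells, and 11 tables of the authors' comparisons were used, each with 61541 Ensembl genes after 4 summary lines were removed. Reads were aligned with STAR (2.7.0f for the RIP and first RNA-seq experiment, 1.5.3 for the second) and compared with DESeq2 2.11.40.6, per the submitters' processing notes, while genome build, annotation and strand setting are not given in the sources used here. Per the file headers, the deposited base mean is a signal (mean of normalised reads over the libraries of a table), the deposited fold change and its standard error are log2 values, the deposited Wald statistic is a score, and the deposited p-value and adjusted p-value are the authors' own. No library's own values are in these tables, so whole reads per library were worked out from the deposited base means of the 10 U2OS tables, giving 1 set for 38466 of 38466 genes with reads in the first experiment and 38466 of 38909 in the second. The same set came from 2 starting points, which does not prove that no other exists. The titles number the replicates but the tables do not, so the libraries of a group carry no number.

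Responses were compared as the difference of 2 log2 fold changes over the root of the summed squared standard errors, two-sided, with Benjamini-Hochberg adjustment over genes whose base mean reached 10 in both tables. The difference test took the shrunken values as deposited. Their shrinkage differed between tables, so part of a difference can come from it. Limma 3.58.1 (voom, R 4.3.3) on the recovered reads, for genes with at least 10 reads in at least 2 libraries, and its fits without each library were added after the data were seen. The plan had kept those reads out of any test, and the authors' tables and the difference test remain the reported results. Limma was tested on simulated data. Medians use genes whose base mean reached 20. Named in each comparison were the 3 highest and 3 lowest members whose base mean reached 100 and GAS5, ZFAS1, SNHG1, SNHG3, SNHG4, SNHG12, SNHG15, TAF1D and DANCR. The members and lists were chosen with earlier results of these data known. Alternatives were a stricter threshold, a fold change of at least 1.5, a base mean minimum of 100, centring on each table's median, unshrunk ratios of group means, and leaving out members that overlap another gene. Python 3.11.15 was used.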

Additional observations from a re-analysis of the deposited data

Results flagged for a closer look

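Responses to arsenite that differed between kinds of cell by the difference test were those of 4 members. SNHG3 differed by 0.68 (adjusted p 0.000219, SE 0.15) for WT rescue minus knockout and by 0.91 (adjusted p 2.13e-07, SE 0.15) for NTF2 rescue minus knockout, in log2 fold change. SNHG16 differed by 0.36 (adjusted p 0.0262, SE 0.11) and 0.40 (adjusted p 0.00833, SE 0.11) in the same order. CYTOR differed by -1.23 (adjusted p 1.10e-13, SE 0.15) and -1.21 (adjusted p 5.93e-12, SE 0.16), the opposite direction. TAF1D differed by 0.36 (adjusted p 0.0409, SE 0.12) for NTF2 rescue minus knockout. Both sets of differences use the same knockout response, so they are not independent of each other.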

How the results depend on the processing

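No paired analysis was possible because the deposited tables carry no replicate numbers. Of the counts of called members and differing members, those that moved by more than 1.5 times did so in the settings named here, and no count or member median changed direction. The unshrunk ratio of group means had the opposite sign to the deposited value for 6 of 273 member values (SNHG29 with arsenite in knockout, DANCR with arsenite in WT rescue, SNHG18 in knockout and CYTOR in wild type against G3BP1 rescue, SNHG26 in knockout against wild type and SNHG20 in arsenite-treated WT rescue against knockout), none called, the largest deposited value among them being 0.05. Leaving out 1 library turned the sign of 20 of 496 such ratios of named members, none of them called. With a fold change of at least 1.5 also required, the calls were 4 for knockout against wild type, 2 for knockout and 3 for wild type against G3BP1 rescue, and 6, 6 and 3 for arsenite in knockout, WT rescue and NTF2 rescue. Without the 14 members that overlap another gene, which leaves fewer to count, they were 9 in RIP, 4, 7 and 5 in the first experiment, 7, 6 and 4 for arsenite, 7 and 9 for WT and NTF2 rescue against knockout, 8 and 8 with arsenite, and 1 and 1 for the arsenite responses of the rescues minus knockout. These counts take both directions together. Shares of all genes under the same settings are not given here, so the counts show only how far the calls depend on the setting. Dividing the RIP Wald statistics by their spread, which treats most genes as unchanged, left 2 calls. Centring on the table's median moved the member median to 0.58 and 0.65 in the rescues against knockout and to 0.25 and 0.20 in the arsenite-treated rescues against knockout, and in the last a base mean minimum of 100 gave 0.66. Limma on recovered reads called 11 members for arsenite in NTF2 rescue, and without single libraries its count ranged from 8 to 12. Fits without single libraries gave 4 to 5 differing members for WT rescue minus knockout, and 0 to 1 between the rescues with arsenite, the 1 arising when a library of the knockout or of the arsenite-treated knockout was left out. The cause of these shifts was not tested. RIP libraries could not be left out because their reads were not recovered. With 2 libraries per group, the smallest two-sided exact permutation p is 0.333, so no such test was used.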
